A study of Homo sapiens with 6 samples.

Results

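Metallothionein expression was examined in PC-3, a human cell line derived from a prostate cancer metastasis, through the genes MT1E, MT1F, MT1G, MT1M, MT1X and MT2A. The genes were chosen by name, and rows were found for 4 of the 6, MT1F, MT1M, MT1X and MT2A, among 19491 rows in all (19429 distinct names). The expression of MT1E and MT1G was not analysed here. The control cells received no inhibitor, and the other groups were exposed to GPNA at 1 mM or to BenSer at 10 mM. Both compounds inhibit the glutamine transporter ASCT2. According to the study, BenSer can also inhibit the transporter LAT1 and appears to have effects beyond ASCT2. Total RNA was sequenced after 48 h. The sample labels name 2 libraries in each of the 3 groups, and nothing in them says that these came from separate cultures. The study's methods speak of 4 replicates, and the further columns of the tables match no label and were not used. All groups are the same cell line in the same serum-containing medium. Per the study's methods, both compounds were dissolved in water and control wells received the vehicle.

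Levels are given as CPM, the reads of a gene per 1000000 reads of its library, and whole reads could be recovered from every value. The libraries held from 23077986 to 32178154 reads, and the genes with a row took 51.6% to 52.7% of them. Differences between the 2 libraries of a group were close to what sampling of reads gives (chi-square per degree of freedom 1.06 for untreated cells, 1.05 for BenSer and 1.04 for GPNA). Over 15623 to 16498 genes this small excess still passed a chi-square test (p = 1.29e-08 for untreated cells, 9.59e-06 for BenSer and 3.24e-05 for GPNA). As the excess was small, the reads of a group were added and each group counts as 1 sample. No difference between groups therefore has a replicate check, and no p-value is given for a treatment. Intervals are exact 95% intervals on the added reads and cover counting error only. The markers KRT8, KRT18, KRT19, EPCAM and CD44, which PC-3 cells carry, were at 91.8 to 777 CPM in every group, and KLK3, which encodes prostate-specific antigen, had no row. Of 9 markers of immune, endothelial and stromal cells, 7 had no row, and COL1A1 and COL3A1 were at 0.683 to 5.57 CPM. COL1A1 was lower with GPNA (-0.48 on the log2 scale of CPM plus 1) and with BenSer (-0.27), and its part in the results was not tested.

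Metallothioneins are small, cysteine-rich proteins that hold zinc and copper ions in clusters of thiolate bonds and so buffer these metals in the cell. Excess zinc or cadmium activates the transcription factor MTF1, which binds metal response elements (MREs) in metallothionein promoters, and glucocorticoids and oxidants also raise some of these genes. Normal prostate epithelium accumulates zinc, a property that is lost in prostate cancer.

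The genes form 1 cluster on chromosome 16 (GRCh37), in which 16 metallothionein genes and pseudogenes span 119 kb (56598985 to 56718108). MT2A (ENSG00000125148) lies at chr16:56642496-56643409, MT1M (ENSG00000205364) at chr16:56666571-56667893, MT1F (ENSG00000198417) at chr16:56691643-56694610 and MT1X (ENSG00000187193) at chr16:56716382-56718108, all on the plus strand. MT1E (56659387 to 56661024) lies in the same stretch, and MT1G (56700642 to 56701977) is on the minus strand. The main transcript of each of the 4 measured genes has 3 exons and 398 to 425 bases.

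The 250 bases before the start of the main transcript are shown for MT2A and MT1X, because the MRE is the control element that these genes share. MT1F is left out here since a longer transcript of it begins inside that window. Capitals mark each match to the MRE core, TGCACNC or TGCGCNC, on either strand, and no matches overlapped. The windows are chr16:56642246-56642495 and chr16:56716132-56716381, plus strand.
MT2A: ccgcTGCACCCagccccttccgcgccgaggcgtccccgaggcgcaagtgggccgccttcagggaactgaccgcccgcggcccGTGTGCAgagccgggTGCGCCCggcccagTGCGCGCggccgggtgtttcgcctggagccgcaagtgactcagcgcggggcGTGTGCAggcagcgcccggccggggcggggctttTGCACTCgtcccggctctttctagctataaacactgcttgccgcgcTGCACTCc
MT1X: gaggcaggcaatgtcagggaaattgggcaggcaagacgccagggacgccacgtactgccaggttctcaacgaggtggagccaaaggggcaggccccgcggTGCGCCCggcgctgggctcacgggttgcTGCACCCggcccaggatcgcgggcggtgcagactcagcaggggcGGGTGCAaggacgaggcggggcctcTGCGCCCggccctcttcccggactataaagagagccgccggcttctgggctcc

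MT2A had 7 MRE cores in this window, the first 8 bases and the last 246 bases before the start. MT1F had 6, MT1G 5, MT1X 4, and MT1E and MT1M 3 each. Among 19862 protein-coding genes with such a window, 30.9% had at least 1 core, 2.19% at least 3 and 0.0252% (5 genes) at least 7. These counts describe letters in the window, not sites that a factor was shown to bind in these cells. The window of MT1E lies wholly, and that of MT1F mostly, inside the annotated gene.

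**Figure D1:**
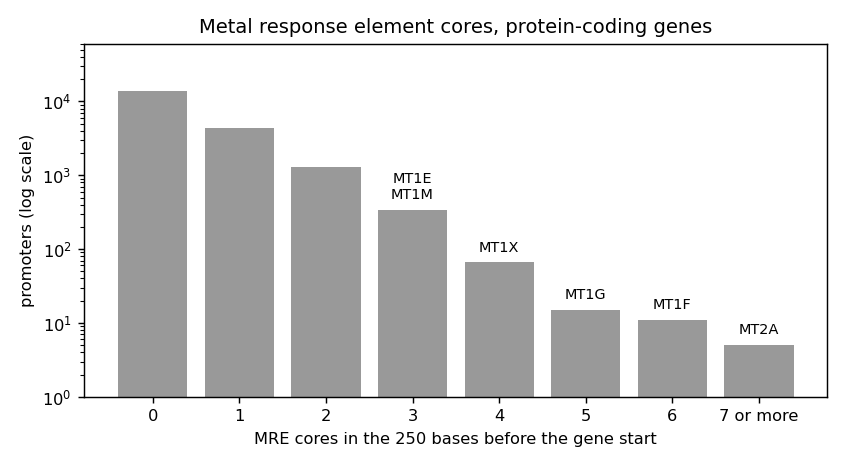
Number of MRE cores in the 250 bases before the start of the main transcript (horizontal axis, labelled as gene start). The vertical axis (log scale) is the number of protein-coding promoters with that many cores. The 6 metallothioneins, named above their bars, had 3 to 7 cores, whereas 30.9% of all promoters had at least 1.

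MT2A, the major metallothionein of many human tissues, was by far the most abundant of the 4 measured genes. It held 95.04% to 95.45% of the reads of the 4 genes in every group. Per length of the main transcript, its level in the control was 208 CPM per kilobase, against 6.90 for MT1X, 2.19 for MT1F and 1.36 for MT1M. Per length of all annotated exons, these levels were 91.1, 1.61, 0.501 and 1.06, so MT2A and MT1X stayed first and second while MT1F and MT1M changed places. The order of the latter pair was thus set by the length used.

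MT2A was higher with both inhibitors. Its level was 81.9 and 84.7 CPM in the control libraries, 93.9 and 98.6 CPM with GPNA, and 109 and 111 CPM with BenSer. The 3 groups did not overlap, and both libraries of either treatment lay above both control libraries. Of all genes, 22.4% had both treated libraries above both control libraries with GPNA and 28.5% with BenSer. The share with all 3 groups apart was not counted. MT2A had 3857 added reads in untreated cells, 4931 with GPNA and 7076 with BenSer. Its level was 1.16-fold the control level with GPNA (interval 1.11 to 1.21) and 1.33-fold with BenSer (1.27 to 1.38). On the scale of log2 of CPM plus 1, which is used for all differences from here on, the difference was 0.21 with GPNA (0.15 to 0.27) and 0.40 with BenSer (0.35 to 0.46). BenSer stood 0.20 above GPNA (0.14 to 0.25), at doses that differ.

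MT1X, a ubiquitously expressed MT1 gene, was higher with BenSer, and its GPNA level could not be told from that of the control at this depth. It had 3.01 and 2.56 CPM in untreated cells, 2.87 and 2.99 CPM with GPNA, and 3.88 and 4.10 CPM with BenSer. The BenSer libraries lay above all others, whereas both GPNA libraries lay between the control libraries. For 28.5% of all genes, both BenSer libraries lay above both control libraries. MT1X had 129 added reads in untreated cells, 150 with GPNA and 256 with BenSer. Its log2 difference was 0.40 with BenSer (0.16 to 0.64) and 0.053 with GPNA (-0.21 to 0.31). The upper bound with BenSer, a 1.79-fold level without the added 1, leaves a difference past 1.5-fold possible. The level with BenSer was 0.35 above that with GPNA (0.12 to 0.57).

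MT1F and MT1M, further MT1 genes of the cluster, were near the limit of what this depth resolves. MT1F had 0.732 and 1.13 CPM in untreated cells, 1.12 and 1.02 CPM with GPNA, and 0.994 and 1.19 CPM with BenSer, from 43, 55 and 70 added reads. MT1M had 0.431 and 0.650 CPM in untreated cells, 0.426 and 0.746 CPM with GPNA, and 0.622 and 0.720 CPM with BenSer, from 25, 30 and 43 added reads. For both genes the libraries of all groups overlapped. The log2 difference of MT1F was 0.10 with GPNA (-0.20 to 0.40) and 0.12 with BenSer (-0.17 to 0.40). For MT1M it was 0.042 with GPNA (-0.25 to 0.33) and 0.12 with BenSer (-0.17 to 0.38). A difference between the groups was not detectable for either gene, and the intervals also contain differences as large as that of MT2A with GPNA.

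**Figure D2:**
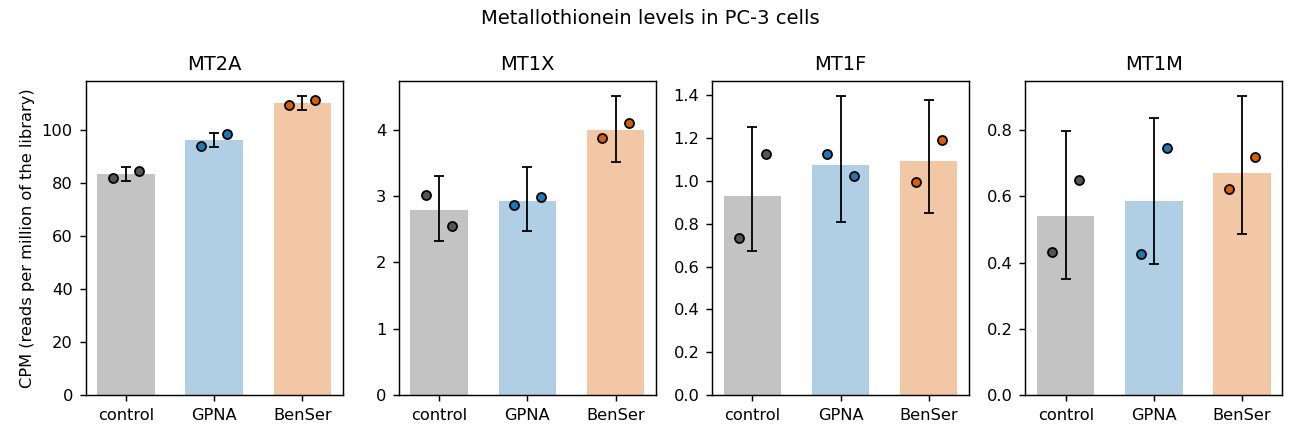
Level in CPM (vertical axis, each from 0) of the 4 measured metallothioneins in control, GPNA and BenSer cells. Bars are the added reads of both libraries with exact 95% Poisson intervals, and points are the single libraries; MT2A goes from 83.3 to 96.2 and 110.4 CPM, whereas the points of MT1F and MT1M overlap between groups.

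Added together, the 3 MT1 genes had 4.25 CPM in the control, 4.59 CPM with GPNA and 5.76 CPM with BenSer. Their summed log2 difference was 0.088 with GPNA (-0.14 to 0.32) and 0.36 with BenSer (0.15 to 0.57). With BenSer, the interval of this sum contained the difference of MT2A, and with GPNA it contained both 0 and the difference of MT2A. All 4 measured genes together went from 87.6 CPM in the control to 101 CPM with GPNA and 116 CPM with BenSer, with log2 differences of 0.20 (0.14 to 0.26) and 0.40 (0.35 to 0.46). This sum is mostly MT2A.

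**Figure D3:**
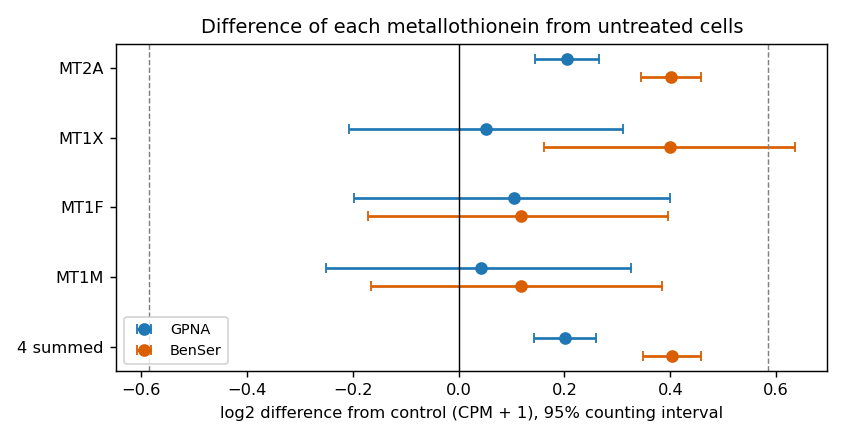
Log2 difference from the control (horizontal axis, CPM plus 1) of each metallothionein and of the 4 summed, with 95% counting intervals; dashed lines mark 1.5-fold. The points lie between 0.042 and 0.40, and those of MT2A with both treatments and of MT1X with BenSer have intervals above 0.

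None of the 4 genes was 1.5-fold different with either treatment. Among genes with enough reads (a mean of at least 5 in either group), 0.404% of 18828 passed this size with GPNA and 3.54% of 18976 with BenSer. The added 1 shrinks the differences of genes near 1 CPM. Without it, the upper bounds of MT1F and MT1M were 1.76-fold and 1.92-fold with GPNA, and 1.76-fold and 2.12-fold with BenSer. For these genes a difference past 1.5-fold thus remains possible. The interval lay above 0 for 1 of 4 genes with GPNA (MT2A) and for 2 of 4 with BenSer (MT2A and MT1X), against 9.78% and 18.2% of all genes. Both treated libraries lay above both control libraries for the same genes, 1 of 4 with GPNA and 2 of 4 with BenSer, against 22.4% and 28.5% of all genes. The difference of MT2A was larger than that of 91.1% of genes with GPNA and 95.3% with BenSer, and that of MT1X larger than that of 68.5% and 95.2%. The median of the 4 genes was 0.078 with GPNA and 0.26 with BenSer, where the medians of all genes were -0.028 and -0.028. Both comparisons use the same control libraries, so they are not independent of each other.

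**Figure D4:**
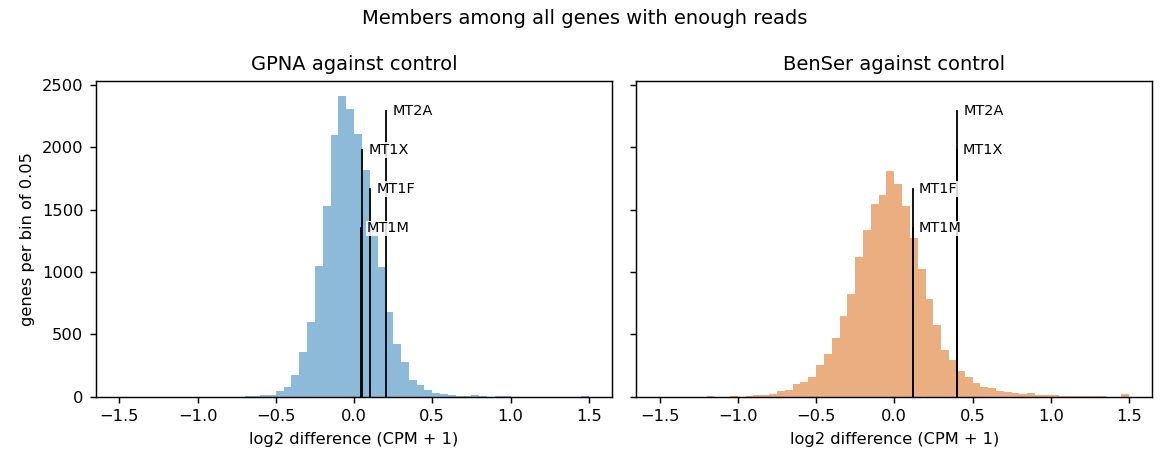
Number of genes per bin of 0.05 (vertical axis) by log2 difference from the control (horizontal axis, CPM plus 1; values beyond 1.5 are drawn in the end bins), with the 4 metallothioneins as labelled lines. MT2A and MT1X lie at 0.40 with BenSer, in the upper part of the distribution, and all 4 lie near its centre or its upper shoulder with GPNA.

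When the 2 libraries of each group were entered as separate samples, limma with Benjamini-Hochberg adjustment called 0 of the 4 genes with GPNA (1 at an unadjusted p under 0.05), against 2.89% of all genes. It called MT2A and MT1X with BenSer, against 27.8% of all genes. The quasi-likelihood test of edgeR on the recovered reads called MT2A with GPNA and MT2A and MT1X with BenSer, against 19.2% and 37.5% of all genes. These tests compare the libraries and not the treatments. In these fits all 6 libraries shared 1 estimate of the spread, a choice made after the counts of both versions were seen. With the 4 libraries of the GPNA comparison alone, limma called 2 genes in place of 545 and again 0 of the 4 metallothioneins.

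Metallothionein reads can be shared between near-identical genes. Over aligned bases the main transcripts of the 6 genes were 80.6% to 89.2% identical to each other. Of all stretches of 50 bases in the main transcript, 51.0% of those of MT1X also occur in a transcript of another gene, 14.6% for MT1M, 11.1% for MT2A and 6.12% for MT1F. At 100 bases this share was 22.0% for MT1X and 0% for the other 3. MT1X begins at the same base as a long non-coding RNA on the same strand (ENSG00000259827, 56716382 to 56721719), which holds 117 of its 355 stretches of 50 bases. How reads of such shared stretches were counted is not given in the sources used here, so the MT1X level is uncertain in particular. The part of shared reads in its difference was not tested.

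The regulators of metallothionein transcription were examined next. MTF1, the zinc-sensing factor, had 14.1 CPM in the control, 12.5 CPM with GPNA and 14.2 CPM with BenSer, with log2 differences of -0.16 (-0.31 to -0.013) and 0.010 (-0.13 to 0.15). Of MTF1, SP1, USF1, USF2 and NR3C1, the glucocorticoid receptor, 0 of 5 were 1.5-fold different with either treatment. The interval lay above 0 for 2 of them with BenSer and for 0 with GPNA, and below 0 for 1 with each. Of all genes, 18.2% had an interval above 0 and 25.8% below 0 with BenSer, and 9.78% and 20.1% with GPNA, and the counts of the lists that follow are to be read beside these shares. A gene with more reads has a narrower interval, and the lists were not matched to all genes in reads.

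SLC30A1, a zinc exporter of the plasma membrane and itself a target of MTF1, had 15.5 CPM in untreated cells, 15.4 CPM after GPNA and 19.0 CPM after BenSer. Its log2 difference was -0.0025 with GPNA (-0.14 to 0.14) and 0.28 with BenSer (0.15 to 0.41). Among the exporters of the ZnT family, 7 of 10 had a row, and with BenSer the interval lay above 0 for 3 and below 0 for 2 of 7 (all genes 18.2% and 25.8%). With GPNA it lay above 0 for 0 and below 0 for 1 of 6 (9.78% and 20.1%). None was 1.5-fold different. The median of the family was 0.15 with BenSer and 0.013 with GPNA.

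The ZIP family, whose members carry zinc into the cytosol, had 11 of 14 genes with enough reads, and none was 1.5-fold different. The interval lay above 0 for 5 and below 0 for 4 of the 11 with BenSer (all genes 18.2% and 25.8%), and above 0 for 1 and below 0 for 3 with GPNA (9.78% and 20.1%). SLC39A11 and SLC39A10, named after their values were seen, marked the ends of this range with BenSer, at log2 differences of 0.42 (0.31 to 0.54) and -0.39 (-0.48 to -0.30). Of 13 genes of copper handling, 0 were 1.5-fold different, and with BenSer the interval lay above 0 for 6 and below 0 for 3 (all genes 18.2% and 25.8%). With GPNA it lay above 0 for 0 and below 0 for 2 of 12 with enough reads (9.78% and 20.1%). The copper-transporting ATPases ATP7A and ATP7B, also named after their values were seen, had log2 differences of 0.43 and 0.41 with BenSer and of 0.10 and 0.049 with GPNA.

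Most of the listed genes that respond to metals and oxidants were higher with BenSer. Of 11 such genes, 9 had an interval above 0 and 1 below 0 with BenSer, against 18.2% and 25.8% of all genes. SLC30A1 is among the 9 and was also counted with the zinc exporters, so the 2 lists are not separate. At least 1.5-fold higher with BenSer were 3 of the 11 genes, against 1.96% of all genes. These 3 were SLC7A11, the cystine transporter subunit, at 0.71 (0.63 to 0.78), and the heat shock protein 70 genes HSPA1A at 0.68 (0.62 to 0.75) and HSPA1B at 0.63 (0.53 to 0.73). HSPA1A and HSPA1B are near-identical copies whose reads can be exchanged. With GPNA, SLC7A11 was higher, at 0.46 (0.38 to 0.55). HSPA1A and HSPA1B were lower with GPNA, at -0.11 (-0.19 to -0.034) and -0.14 (-0.26 to -0.026). GCLM, named after its values were seen, was lower with BenSer, at -0.19 (-0.31 to -0.073). With GPNA the interval lay above 0 for 2 of the 11 genes and below 0 for 4, against 9.78% and 20.1% of all genes. HMOX1, which encodes the inducible heme oxygenase and was named after its values were seen, had 4.77 CPM in the control, 6.54 CPM with GPNA and 6.88 CPM with BenSer. Its log2 difference was 0.38 with GPNA (0.17 to 0.60) and 0.45 with BenSer (0.25 to 0.65). The study also names SLC7A11 among the transporters regulated by the stress-response factor ATF4. It found no increase of reactive oxygen species in PC-3 cells with either compound, after a shorter exposure than here. The cause of the differences in this list was not tested.

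Genes induced by glucocorticoids went in both directions. Of 8 with enough reads, the interval lay above 0 for 5 and below 0 for 3 with BenSer (all genes 18.2% and 25.8%), and above 0 for 2 and below 0 for 3 with GPNA (9.78% and 20.1%). At least 1.5-fold higher with BenSer were 2 of the 8, against 1.96% of all genes. TSC22D3, which encodes the glucocorticoid-induced leucine zipper protein, had a log2 difference of 0.87 with BenSer (0.67 to 1.06), and PER1, a circadian repressor, of 0.61 (0.41 to 0.80). FKBP5, a co-chaperone of the glucocorticoid receptor, was lower, at -0.57 with BenSer (-0.70 to -0.44) and -0.35 with GPNA (-0.48 to -0.21). It was named after its values were seen.

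**Figure D5:**
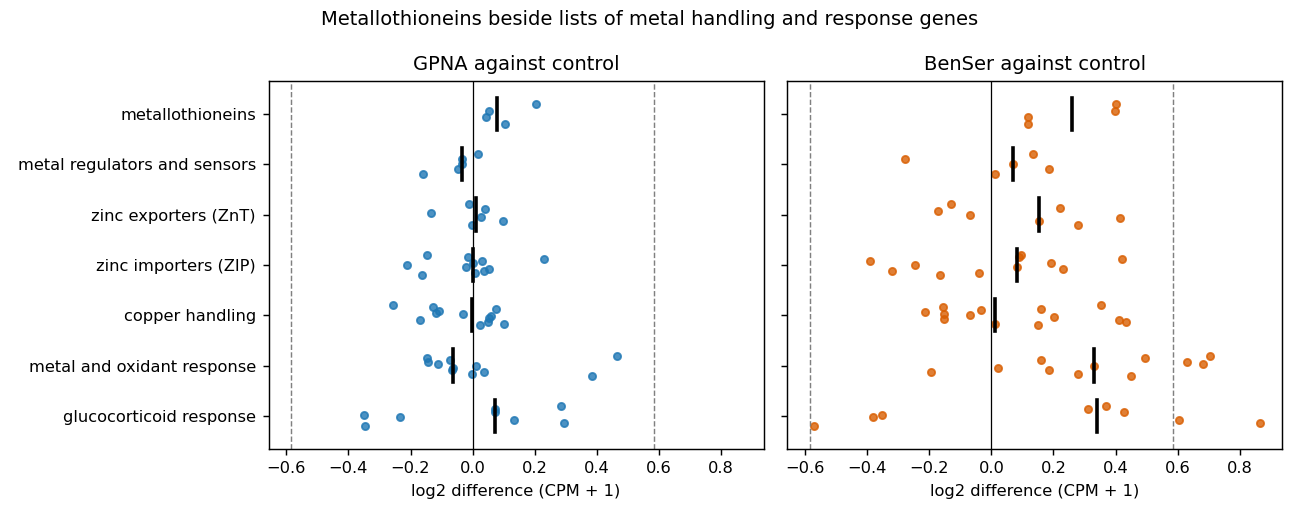
Log2 difference from the control (horizontal axis, CPM plus 1) of the genes of each list (points) with the median of the list (bar); dashed lines mark 1.5-fold. With BenSer the medians of the metallothioneins, the metal and oxidant response and the glucocorticoid response are 0.26, 0.33 and 0.34, and that of the copper handling genes is 0.010.

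The genes on either side of the metallothionein cluster did not share one direction. With BenSer, NUDT21, an mRNA 3' processing factor that lies 113 kb before the cluster, had a log2 difference of -0.45 (-0.51 to -0.40), and NUP93, a nuclear pore protein 45.9 kb after it, of -0.34 (-0.42 to -0.26). HERPUD1, an endoplasmic reticulum stress gene 248 kb after the cluster, had 0.56 with BenSer (0.48 to 0.63) and 0.40 with GPNA (0.32 to 0.48). OGFOD1 and NLRC5, further nearby protein-coding genes with a row, had -0.13 and 0.74 with BenSer and -0.078 and 0.20 with GPNA. These genes were picked by position alone, after other results of the analysis were seen.

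Among 8260 other genes with at least 10 CPM in a group, YARS, INPP4B, NFE2L3, KIAA1109 and FAM126B had the pair of log2 differences (GPNA and BenSer) closest to that of the 4 summed metallothioneins. Their distances were 0.0015 to 0.020 on the log2 scale over the 2 comparisons. In all, 32 genes lay within 0.05 and 146 within 0.1, so this pair of values did not set the metallothioneins apart. YARS, the cytosolic tyrosyl-tRNA synthetase, had 69.6 CPM in the control, 80.2 CPM with GPNA and 92.4 CPM with BenSer.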

How the data were processed

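PC-3 cells were sequenced as 6 libraries, 2 in each of 3 groups. The authors prepared stranded total RNA libraries, aligned trimmed paired-end reads to hg19/GRCh37.p13 (TopHat2), counted reads per gene and divided by the library total. The submitters' processing notes also name Bowtie2, HTSeq and DESeq. The deposited values are CPM in 2 tables, in columns named as counts. All values (100%, within 0.001 reads) were whole reads over the total, so reads were recovered. Each table has 4 columns per group. Columns 1 and 2 match the titles of samples, and 8 further column entries (6 distinct) were not used. The deposited log2 fold changes, p-values and false discovery rates of the authors' own comparisons were not used either.

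Differences are log2 of CPM plus a pseudocount of 1 on the added reads, with Clopper-Pearson intervals at 95% (conditional binomial). Genes needed a mean of 5 reads in either group. limma 3.58.1 on log2 of CPM plus 1 and edgeR 4.0.16 on reads, in R 4.3.3, fitted all 3 groups with the libraries as samples (Benjamini-Hochberg adjusted p under 0.05). The fits were first made on the 4 libraries of each pair and changed to all 6 after their counts were seen; both are given. DESeq2 1.42.0 gave size factors. The steps were tested on simulated reads that varied by sampling only. The changed genes there had larger changes than the metallothioneins and higher levels than the MT1 genes. That test thus does not show how well small differences at few reads are recovered. Gene positions, transcripts and promoter windows come from the GENCODE annotation on GRCh37, and alignments from Biopython 1.88. Lists and the naming rule (listed genes past 1.5-fold, at most 3 per list, plus MTF1 and SLC30A1, and the 5 genes closest in pattern) were chosen with earlier results of these data known. Genes named outside the rule are said to be so. The shares of intervals above or below 0, the shared stretches, the lengths and the neighbours were added after values were seen. 14 other metallothionein genes and pseudogenes were listed, and 0 had a row here. Alternatives were other pseudocounts, filters, scalings and thresholds, leaving out single libraries, and a replicate block. Some genes and promoter sequences that were examined are not reported here.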

Additional observations from a re-analysis of the deposited data

How the results depend on the processing

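The summed metallothionein difference kept its direction and stayed within its counting interval under all 11 alternatives in each comparison. These were other pseudocounts, filters and scalings, and single libraries left out. The difference ranged from 0.17 to 0.24 with GPNA, from 0.38 to 0.45 with BenSer and from 0.17 to 0.24 for BenSer beside GPNA. Leaving out the filter could not move it, as all 4 genes already passed, and the filter of 1 CPM dropped MT1M only. MT2A was above the control in all alternatives. MT1F and MT1X with GPNA and MT1F with BenSer were below it in 1 of 11, and MT1M with GPNA in 2 of 10 (it has too few reads for the filter of 1 CPM), each time with a library left out. MT1X with BenSer ranged from 0.21 (pseudocount of 5) to 0.50 (pseudocount of 0.1). The number of genes past 1.5-fold depends on the pseudocount, at 1536 (0.1) and 31 (5) in place of 76 with GPNA, and 2608 and 274 in place of 672 with BenSer. At 2-fold it was 9 and 92. Without single libraries it was 99 to 113 with GPNA and 696 to 749 with BenSer. With BenSer, 371 genes were higher and 301 lower at the library total, and 432 and 214 with TMM scaling. Between libraries, limma called 545 genes with GPNA, edgeR 3608 and limma with a replicate block 3, and edgeR called 1 metallothionein where limma called 0 with and without the block. With BenSer, limma called 5278 genes, edgeR 7122 and limma with the replicate block 4534, and each called MT2A and MT1X. The fits on the 4 libraries of a pair, added after the data were seen, called with GPNA 2 genes (limma), 3264 (edgeR, 1 metallothionein) and 0 (limma with the replicate block, 3874 at an unadjusted p under 0.05). With BenSer they called 4493 (limma), 6813 (edgeR) and 2661 (limma with the replicate block, which called 1 metallothionein, MT2A, and lost MT1X). How many genes limma calls with GPNA thus rests on which libraries enter the fit. The deviations of libraries with the same number correlated at 0.043 to 0.066 over 7924 genes, low but positive for every pair of groups. Counting error made up most of these deviations (chi-square per degree of freedom 1.045 to 1.064), which keeps any such correlation low. The values therefore cannot tell whether libraries with the same number were handled together. The cause of these changes was not tested. Depth limits MT1F and MT1M, with 25 to 70 reads a group, and none of the alternatives shows how far separate cultures would vary.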
